A study of Mus musculus with 12 samples.

Results

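Messenger RNA of actin and of the proteins that build, cut, cap, bundle and pull on actin filaments was compared in mouse kidney cortex between 3 diabetic and 3 menopausal/diabetic mice. Members were all clones whose gene symbol in the platform table names an actin, an actin-related protein, an Arp2/3 subunit, cofilin, profilin, a tropomyosin, a numbered myosin light or heavy chain, a capping protein, a thymosin, a filamin, a talin, a calponin, a kindlin, Wdr1, vinculin or gelsolin. This gave 64 of the 15600 clones on the array, standing for 38 genes. Of these clones 59 passed a filter that left out the dimmest 25% of all clones, and 37 of the 38 genes could be tested. Myh10, a nonmuscle myosin heavy chain, has 1 clone here, which did not pass. Acta2, the smooth muscle actin, Pfn1, Tln1 and Arpc3 were not tested here. When a gene had several clones, the brightest stood for it.

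Both groups had received streptozotocin (STZ), which destroys the insulin-making beta cells, and RNA was taken from kidney cortex 6 weeks later. The menopausal/diabetic mice had also received VCD, vinylcyclohexene diepoxide, which depletes the small follicles of the ovary. There was no group without STZ and none with VCD alone, so whether a difference depends on diabetes cannot be told apart from an effect of VCD by itself. No group separates ovarian failure from other actions of VCD. The labels name no strain, age or vehicle.

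The animals were hybridised in pairs to 12 two-channel arrays of spotted cDNA clones, each animal on 4 arrays and 2 in each dye, with 6 arrays between the groups and 3 within each. An animal's level of a gene is a log2 value, fitted from all 12 arrays so that the 6 animals average 0, and differences are menopausal/diabetic minus diabetic. The fit takes off a dye term for each clone. Ratios quoted for single arrays keep it, so they mix a clone's dye difference with that between animals. Per array, the median spot was 25.3 to 209 intensity units above its background in Alexa Fluor 546 and 14.6 to 107 in Alexa Fluor 647, and 30.5% to 57.4% of spots were marked detected. Nothing in the labels says more of the animals than their numbers, so p-values measure only the spread between these samples, part of which may be technical. The titles place the animals, and the arrays support them unevenly: when an array's ratios were predicted from the remaining 11, their correlation with the measured ones across clones ran from -0.255 (menopausal/diabetic 1 with diabetic 2) to 0.491 (diabetic 2 with diabetic 3). Inside its file, the last of these carries the same animal identifier for both dyes, and it is that of neither animal in its title. The columns of the authors' deposited log2 table match other arrays than their own. Clones printed in the 3 blocks at the slide's upper left stood apart: 31.3% of the 547 features there had an unadjusted p under 0.05 against 7.04% elsewhere, and 84.1% were higher in menopausal/diabetic mice. Every array level is of whole tissue, in which fewer cells of a type and less RNA per cell cannot be told apart.

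Actin is a small globular protein that assembles into polar filaments, growing at one end and dissolving at the other. The Arp2/3 complex starts branches, profilin and thymosins hold the pool of monomers, cofilin and gelsolin cut filaments, and capping protein closes the growing end. Tropomyosins and calponins lie along the filament, filamin and alpha-actinins link filaments to one another, myosin II pulls on them, and kindlins and vinculin tie them to integrins. In the kidney cortex, actin forms the core of the proximal tubule's brush border and of the podocyte's foot processes, and it drives contraction in mesangial and vessel wall cells. Many genes of this kind are known targets of serum response factor, which binds the CArG box.

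Promoter windows reaching 250 bases before and 50 bases after the annotated start were matched for 34 of the 38 genes (RefSeq, build GRCm38.p6). The genes without one are Actb, Actn3, Actr8 and Arpc5l. The CArG box was searched by its standard consensus on both strands, and the GC box as GGGCGG or, on the other strand, CCGCCC. A CArG box lay in the windows of 7 of the 34 genes, or 20.6%, against 1.81% of 27025 genes. A GC box lay in 28, or 82.4%, against 38.2%, and no CArG box overlapped a GC box. The sequence TATAAA, read on both strands, lay in 1 of the 34, or 2.94%, against 15.7%. A match is a description of these letters and not a binding site. The 250 bases before the start are shown for the 4 genes with the smallest unadjusted p, to show how unlike their promoters are. Capitals mark CArG and GC boxes: the windows of Fermt2 and Arpc4 have a CArG box, that of Cnn3 has a GC box only, and that of Cfl1 has neither.
Cfl1, chr19:5490205-5490454, forward strand: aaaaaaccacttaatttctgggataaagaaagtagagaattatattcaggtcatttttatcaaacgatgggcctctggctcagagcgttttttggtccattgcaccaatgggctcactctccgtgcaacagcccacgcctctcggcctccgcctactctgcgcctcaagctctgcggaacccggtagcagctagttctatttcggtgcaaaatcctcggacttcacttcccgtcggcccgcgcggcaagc
Fermt2, chr14:45530066-45530315, reverse strand: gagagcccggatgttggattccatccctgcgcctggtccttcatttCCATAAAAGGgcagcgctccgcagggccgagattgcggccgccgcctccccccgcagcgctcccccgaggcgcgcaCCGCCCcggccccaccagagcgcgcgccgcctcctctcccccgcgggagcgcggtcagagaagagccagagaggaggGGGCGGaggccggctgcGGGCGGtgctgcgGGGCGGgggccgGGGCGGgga
Cnn3, chr3:121426291-121426540, forward strand: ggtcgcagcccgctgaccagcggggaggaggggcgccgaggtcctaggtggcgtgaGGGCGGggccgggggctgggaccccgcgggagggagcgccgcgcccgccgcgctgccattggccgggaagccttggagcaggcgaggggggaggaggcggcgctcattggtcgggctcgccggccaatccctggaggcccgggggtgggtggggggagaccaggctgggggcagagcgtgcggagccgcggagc
Arpc4, chr6:113377863-113378112, forward strand: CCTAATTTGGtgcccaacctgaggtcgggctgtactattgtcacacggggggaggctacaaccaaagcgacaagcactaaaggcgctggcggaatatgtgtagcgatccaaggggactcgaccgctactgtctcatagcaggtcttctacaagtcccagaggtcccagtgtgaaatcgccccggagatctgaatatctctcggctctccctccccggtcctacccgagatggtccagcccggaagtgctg

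The CArG boxes of the other 5 genes are shown with 10 bases on each side, since these genes share a match to the consensus, with unlike letters inside it for most, and had unlike differences between the groups. Capitals mark the box.
Actg1, chr11:120348566-120348595, reverse strand: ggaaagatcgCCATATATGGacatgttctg
Cnn2, chr10:79988534-79988563, forward strand: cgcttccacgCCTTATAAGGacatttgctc
Myl6, chr10:128493040-128493069, reverse strand: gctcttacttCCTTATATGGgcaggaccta
Myl9, chr2:156775293-156775322, forward strand: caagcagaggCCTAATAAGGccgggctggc
Vcl, chr14:20929161-20929190, forward strand: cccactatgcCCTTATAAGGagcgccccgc
The box began 90 bases before the start in Actg1, 56 in Cnn2, 50 in Myl6, 161 in Myl9 and 227 in Vcl, and 204 in Fermt2 and 250 in Arpc4. The group differences of these 7 genes were 0.06 for Actg1, -0.0004 for Cnn2, -0.15 for Myl6, 0.04 for Myl9, 0.15 for Vcl, 0.44 for Fermt2 and 0.20 for Arpc4. Genes with a box thus lay on both sides of 0.

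**Figure D1:**
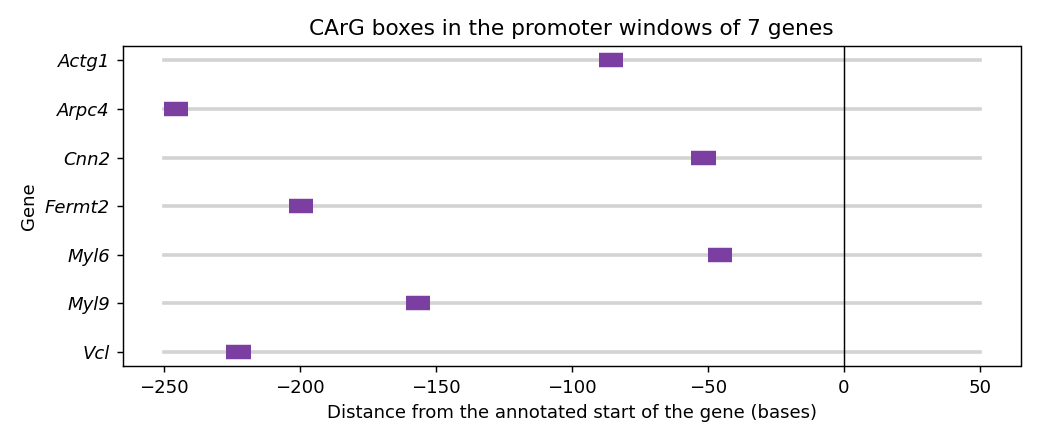
Positions of CArG boxes in the windows of 7 genes, as distance in bases from the annotated start (black line at 0); grey lines span the window searched and purple blocks are the boxes. The boxes begin from 250 bases (Arpc4) to 50 bases (Myl6) before the start.

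The comparison of the groups asks whether adding VCD to diabetes goes with other levels of these transcripts. No member passed the threshold. By limma with Benjamini-Hochberg adjustment over all 9955 features, 0 of the 37 had an adjusted p under 0.05, as for all features (0%), and the members' adjusted p ran from 0.282 to 0.9997. At an unadjusted p under 0.05, 6 were higher (16.2%) where 5.11% of all features were, and 1 was lower (2.70%) where 3.25% were. The 6 were Cfl1, Fermt2, Cnn3, Arpc4, Actb and Gsn, and the 1 was Capza2. The 3 animals of each group did not overlap for 7 members with menopausal/diabetic mice higher (18.9% against 7.64% of all features) and for 2 with them lower (5.41% against 6.63%). Of the 37 differences 25 were above 0 and 12 below, with a median of 0.04 against -0.0022 over all features and a range of -0.18 to 0.59. The smallest two-sided p that an exact permutation of 3 against 3 animals allows is 0.1, so none is given.

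Position on the slide moved with these counts. Cfl1, Fermt2, Gsn, Tmsb4x and Arpc1b lie in the 3 upper left print blocks, whose median differences over all features were 0.11, 0.20 and 0.08, against -0.06 to 0.03 in the other 45 blocks. Among the 32 members elsewhere, 3 were higher at an unadjusted p under 0.05 (Cnn3, Arpc4 and Actb) and 1 lower, and the median was 0.03, where 3.65% of all features elsewhere were higher and 3.39% lower. With 1 loess curve per print block, which removes block-wide shifts, 3 of 37 members were higher at that p, against 4.18% of all features. They were Cfl1, Fermt2 and Cnn3. In that setting 1 of 37 members was lower, Capza1 in place of Capza2, against 3.57% of all features. The part of print position in the members' differences was not tested further.

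**Figure D2:**
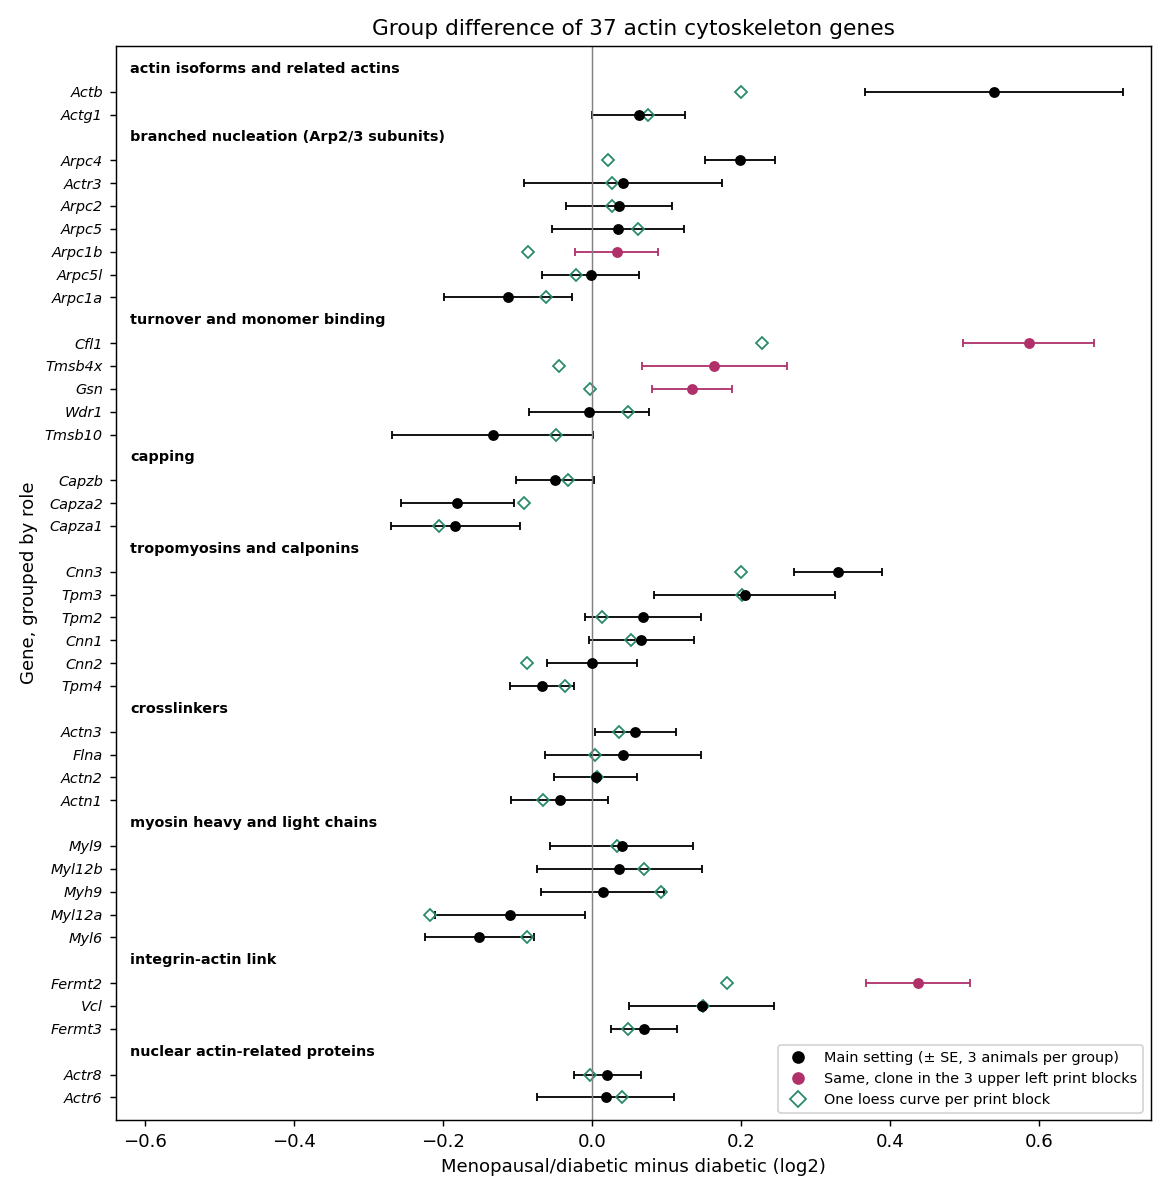
Difference between the groups in log2 units for the 37 genes tested, grouped by role; points are the differences with bars of 1 SE over 3 animals per group, coloured points are clones in the 3 upper left print blocks, and open diamonds give the value with 1 loess curve per print block. Cfl1 falls from 0.59 to 0.23 and Actb from 0.54 to 0.20, while the capping proteins stay below 0.

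Beta-actin, encoded by Actb, is the main cytoplasmic actin, and its brightest clone lay at the 99.7th percentile of brightness on the array. Its levels were -0.46, 0.13 and -0.48 in diabetic mice 1, 2 and 3. In menopausal/diabetic mice 1, 2 and 3 they were 0.19, 0.17 and 0.45. The groups did not overlap, but diabetic 2 lay 0.04 below the nearest menopausal/diabetic animal. The difference was 0.54 ± 0.17 (SE, 3 animals per group), a fold of 1.45, with an adjusted p of 0.537 by limma. Without diabetic 2 it was 0.88, the only member value past the threshold under any alternative (adjusted p 0.0363), and without diabetic 3 it was 0.25. With the dye term left in, the 6 arrays between the groups gave 0.34, 0.18 and -0.10 with the menopausal/diabetic animal in Alexa Fluor 647. With it in Alexa Fluor 546 they gave -0.02, 1.63 and 1.22. The 2 highest were the arrays of menopausal/diabetic 2 with diabetic 3 and of menopausal/diabetic 3 with diabetic 1. Within groups, ratios of 647 over 546 ran from -0.93 to 0.07, so single arrays do not separate dye from group.

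Actb has 10 clones, which allow the same transcript to be read repeatedly in the same animals. Of these, 9 passed the filter and all 9 had differences above 0. The 8 that were detected on 10 or more arrays gave 0.10 to 0.54. Only the brightest of the 8 had an unadjusted p under 0.05, and only in it did the groups not overlap. Clones of 1 gene share the animals and the arrays and are not replicates of the groups. Diabetic 3 was the lowest of the diabetic mice in 7 of the 8 and the lowest of all 6 animals in 6, at levels from -0.75 to -0.04. Menopausal/diabetic 1 was the highest of its group in 7 of the 8. Diabetic 1 lay at -0.46 in the brightest clone and at 0.22 and 0.24 in the next 2, so the clones did not read that animal alike. Diabetic mice differed from one another by the F test on arrays in 1 of these clones when each clone was a unit (adjusted p 0.03).

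**Figure D3:**
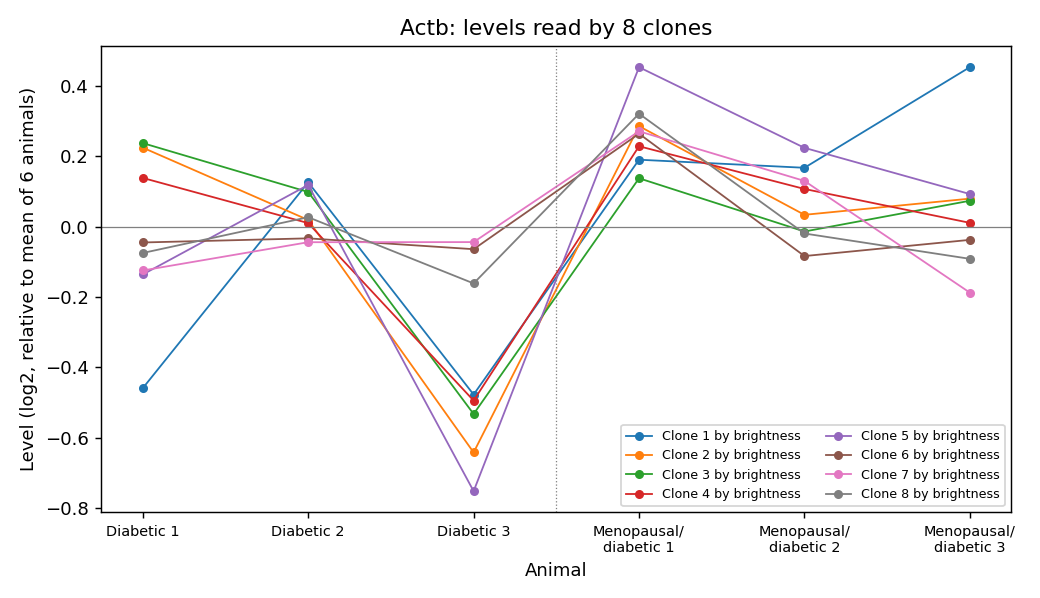
Levels of Actb in the 6 animals (log2, relative to the mean of the 6) as read by the 8 clones detected on 10 or more arrays; each line joins 1 clone's values. Diabetic 3 lies at -0.75 to -0.04 and is the lowest animal in 6 of the 8, while diabetic 1 is spread from -0.46 to 0.24.

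Gamma-actin, encoded by Actg1, is the other cytoplasmic actin, and its coding sequence is so like that of Actb that a spotted cDNA may read both. Its brighter clone gave -0.01, -0.14 and 0.06 in diabetic mice and 0.03, 0.05 and 0.02 in menopausal/diabetic mice. The groups overlapped, with a difference of 0.06 ± 0.06 (adjusted p 0.843 by limma). Its other clone gave 0.26 ± 0.10, with groups that did not overlap. Levels of both actins therefore depended on the clone that was read.

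Cofilin, encoded by Cfl1, severs and depolymerises old filaments, and it had the largest difference of the 37. Its levels were -0.29, -0.23 and -0.36 in diabetic mice and 0.24, 0.47 and 0.17 in menopausal/diabetic mice. Every menopausal/diabetic animal lay above every diabetic one, and menopausal/diabetic 2 was the highest. The difference was 0.59 ± 0.09, with an adjusted p of 0.282 by limma. With the dye term left in, all 6 arrays between the groups were above 0. They gave 0.51, 0.65 and 0.13 with the menopausal/diabetic animal in Alexa Fluor 647, and 0.53, 0.92 and 0.77 with it in Alexa Fluor 546. Leaving out each animal in turn gave 0.50 to 0.67. This clone lies in an upper left print block, where the median of all features was 0.11, and with a loess curve per print block its difference was 0.23. The second Cfl1 clone, elsewhere on the slide and marked detected on no array, gave 0.08.

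Gelsolin, encoded by Gsn, cuts and caps filaments in the presence of calcium. Its levels were -0.07, -0.09 and -0.03 in diabetic mice and 0.14, 0.06 and -0.0006 in menopausal/diabetic mice, so the groups did not overlap by a narrow margin. Its clone was marked detected on 1 of the 12 arrays and lies in an upper left block. The difference of 0.13 ± 0.05 (adjusted p 0.589) was -0.0024 with a loess curve per print block and -0.01 without diabetic 1. Tmsb4x, encoding the main thymosin that holds monomers, had levels of 0.07, -0.04 and -0.27 in diabetic mice and 0.17, -0.02 and 0.10 in menopausal/diabetic mice. These overlapped, and the difference of 0.16 ± 0.10 became -0.04 with a curve per print block and 0.02 without diabetic 3. Tmsb10, the related thymosin, was at -0.13 ± 0.14, and at -0.016 without diabetic 1 and -0.22 without diabetic 3. Its level was 0.36 in diabetic 1 and between -0.22 and 0.01 in the other 5 animals. Wdr1, the cofilin partner AIP1, was level between the groups at -0.0044 ± 0.08.

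Capping protein is a dimer of an alpha subunit, encoded by Capza1 or Capza2, and a beta subunit, encoded by Capzb. All 3 lay below 0, with a median of -0.18. Levels of Capza2 were 0.07, -0.01 and 0.21 in diabetic mice and -0.06, -0.02 and -0.19 in menopausal/diabetic mice. The groups did not overlap, with a gap of 0.0082 between diabetic 2 and menopausal/diabetic 2. Its difference was -0.18 ± 0.08, a fold of 0.882, with an adjusted p of 0.594 by limma. Leaving out each animal gave -0.29 (without diabetic 2) to -0.11 (without menopausal/diabetic 3). The second Capza2 clone, detected on all 12 arrays as the first was, gave -0.21 ± 0.06, also without overlap. Capza1 had -0.18 ± 0.09, and with the dye term left in 0 of its 6 arrays between the groups lay above 0. Those arrays gave -0.25, -0.30 and -0.11 with the menopausal/diabetic animal in Alexa Fluor 647. With it in Alexa Fluor 546 they gave -0.18, -0.24 and -0.02. A dye term enters these sets with opposite signs. Ratios of Capza1 within groups, taken in a fixed dye order, ran from -0.62 to 0.09. Levels of Capza1 were 0.10, -0.07 and 0.25 in diabetic mice and -0.17, -0.07 and -0.05 in menopausal/diabetic mice. These overlapped at diabetic 2, and a dimmer Capza1 clone in the upper left blocks gave 0.04. Capzb was at -0.05 ± 0.05 on a clone detected on 4 arrays. No clone of Capza2 is in the upper left blocks, and with a curve per print block the 3 differences were -0.21 for Capza1, -0.09 for Capza2 and -0.03 for Capzb.

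Of 7 tested genes of the Arp2/3 complex, which starts branched filaments, 5 were above 0 and 2 below, with a median of 0.03. Arpc4, a core subunit, had levels of -0.09, -0.11 and -0.09 in diabetic mice and 0.12, 0.13 and 0.05 in menopausal/diabetic mice. The diabetic animals spanned 0.015 and were all below the other group. The difference was 0.20 ± 0.05, a fold of 1.15 (adjusted p 0.510 by limma), and it was 0.02 with a curve per print block although the clone is not in the upper left blocks. With the dye term left in, its 6 arrays between the groups gave -0.09 to 0.59, 4 above 0. The closeness of the fitted diabetic levels was thus not that of single arrays. Leaving out each animal gave 0.11 (without diabetic 1) to 0.29 (without menopausal/diabetic 2). The other 6 subunits lay between -0.11 (Arpc1a) and 0.04 (Actr3). Arpc1a was at 0.04 without diabetic 3, its highest animal, while its second clone, also detected on all 12 arrays, gave -0.15 ± 0.06 without overlap between the groups. Arpc2, which with Arpc4 forms the core that grips the mother filament, was at 0.04 ± 0.07 (adjusted p 0.952 by limma). Arp3 itself, encoded by Actr3, had diabetic levels of -0.32, 0.11 and 0.15 and a standard error of 0.13 on its difference.

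Among proteins that lie along the filament, calponin 3, encoded by Cnn3, an actin-binding calponin of many nonmuscle cells, had the largest difference. Its levels were -0.16, -0.08 and -0.25 in diabetic mice and 0.21, 0.12 and 0.17 in menopausal/diabetic mice. The groups did not overlap, and every menopausal/diabetic animal was above 0. The difference was 0.33 ± 0.06, a fold of 1.26, with an adjusted p of 0.338 by limma. Its clone is outside the upper left blocks and was detected on all 12 arrays. With the dye term left in, 5 of 6 arrays between the groups were above 0. Leaving out each animal gave 0.22 to 0.42, the lowest without diabetic 3, and a curve per print block gave 0.20. The smooth muscle calponin Cnn1 was at 0.07 ± 0.07 and Cnn2 at -0.0004 ± 0.06.

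Tropomyosins coil along filaments and set which other proteins can bind. Tpm3 had levels of 0.09, -0.04 and -0.36 in diabetic mice and 0.17, -0.02 and 0.16 in menopausal/diabetic mice. Diabetic 3 was far below the rest, and the groups overlapped. Its difference of 0.21 ± 0.12 (adjusted p 0.679) was 0.20 with a curve per print block, and its second clone gave 0.19 and its dimmest clone -0.01. Tpm2 was at 0.07 ± 0.08. Tpm4 was at -0.07 ± 0.04 without overlap between the groups, on a clone detected on 4 arrays.

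**Figure D4:**
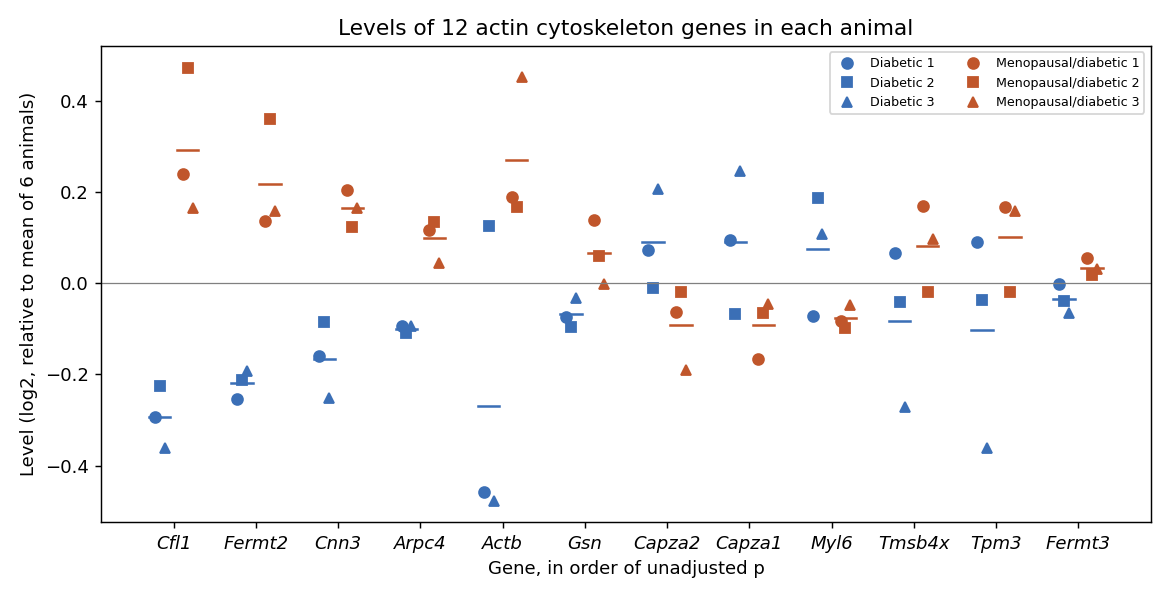
Levels of the 12 genes with the smallest unadjusted p in each animal (log2, relative to the mean of the 6 animals), blue for diabetic and orange for menopausal/diabetic, with marker shapes for animals 1 to 3 and bars for group means. The groups do not overlap for Cfl1, Fermt2, Cnn3 and Arpc4 and, by narrower gaps, for Actb, Gsn, Fermt3 and Capza2, the last with menopausal/diabetic mice lower. The diabetic levels of Actb run from -0.48 to 0.13.

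Of the 4 crosslinkers 3 lay above 0 and 1 below, with a median of 0.02. Filamin A, encoded by Flna, joins filaments into nets and had diabetic levels of 0.17, -0.0045 and -0.23, against 0.12, -0.01 and -0.04 in the other group. Its difference of 0.04 ± 0.11 was -0.10 without diabetic 3. The alpha-actinins Actn1, Actn2 and Actn3 lay between -0.04 and 0.06, and Actn2 and Actn3, the striated muscle forms, were detected on 4 and 1 of the 12 arrays.

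Of the 5 tested myosin II chains, 3 were above 0 and 2 below. The nonmuscle heavy chain Myh9 was at 0.01 ± 0.08, with diabetic levels of 0.13, -0.03 and -0.12. The essential light chain Myl6 was at -0.15 ± 0.07 (adjusted p 0.625 by limma), and at -0.077 without diabetic 3. Levels of Myl6 were -0.07, 0.19 and 0.11 in diabetic mice and -0.08, -0.10 and -0.05 in menopausal/diabetic mice, so that diabetic 1 lay within the other group. The regulatory light chains Myl12a, Myl12b and Myl9 gave -0.11 ± 0.10, 0.04 ± 0.11 and 0.04 ± 0.10.

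Of the proteins that tie actin to integrins, all 3 tested lay above 0. Kindlin 2, encoded by Fermt2, activates integrins at cell-matrix contacts. Its levels were -0.25, -0.21 and -0.19 in diabetic mice and 0.14, 0.36 and 0.16 in menopausal/diabetic mice. The groups were 0.33 apart at their nearest animals, and menopausal/diabetic 2 was again the highest. The difference was 0.44 ± 0.07, a fold of 1.35, with an adjusted p of 0.302 by limma. With the dye term left in, all 6 arrays between the groups were above 0 (0.05 to 0.66). Ratios within groups, taken in a fixed dye order, ran from -0.64 to -0.02. Arrays between the groups gave 0.51, 0.66 and 0.56 with the menopausal/diabetic animal in Alexa Fluor 647. With it in Alexa Fluor 546 they gave 0.05, 0.53 and 0.33. A dye term enters these sets with opposite signs. This clone also lies in an upper left print block, where the median of all features was 0.20, and with a curve per print block the difference was 0.18. The second Fermt2 clone, detected on 9 arrays as the first was, lies elsewhere and gave -0.02 ± 0.04. The 2 clones therefore disagreed, and whether they read the same transcript was not tested. Vinculin, encoded by Vcl, which reinforces the link under tension, was at 0.15 ± 0.10 and -0.03 without diabetic 3, the lowest animal at -0.27. Kindlin 3, encoded by Fermt3 and known from blood cells, was at 0.07 ± 0.04 without overlap, on a clone detected on no array, and at 0.50 in the authors' deposited log2 ratios re-matched to their arrays.

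Actr6 and Actr8, actin-related proteins of nuclear chromatin remodelling complexes, matched the symbol rule and gave 0.02 each.

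By the F test on the 12 arrays, whose error is that between arrays, 0 of 37 members differed among diabetic mice at an adjusted p under 0.05, where 1.47% of all features did. At an unadjusted p under 0.05, 4 did (10.8% against 13.1%): Tmsb10, Tpm3, Myh9 and Flna. Diabetic 1 was the highest of its group in all 4, and diabetic 3 the lowest. Among menopausal/diabetic mice 0 members passed the adjusted threshold (0% of all features), and Myl12b and Wdr1 had an unadjusted p under 0.05 (5.41% against 5.15%). In both, menopausal/diabetic 1 was highest and menopausal/diabetic 2 lowest. Over all members the median level was 0.0011, -0.04 and -0.03 in diabetic mice 1, 2 and 3 and 0.09, -0.02 and 0.0096 in menopausal/diabetic mice 1, 2 and 3. Diabetic 3 was the lowest of its group in 15 of 37 members and the highest in 16 of 37. Over all features the shares were 34.2% and 38.7%.

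Clones of 1 gene were compared within the family. Of 14 genes with several clones that passed, 9 had all clones on 1 side of 0. The others were Capza1, Fermt2, Myl12b, Tpm2 and Tpm3. Over single clones, 39 were above 0 and 20 below, and 9 of the 39 were clones of Actb. No share over all genes with several clones is given, so the clone counts are not read as a result about the members. Detection was uneven: 17 members were marked detected on all 12 arrays, 12 on 9 to 11 and 8 on fewer. Among the 29 detected on 9 or more arrays, 5 of the 6 higher members and the 1 lower remained, Gsn being the one that did not. The share over all features detected as often is not given, so these counts have no background beside them.

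Other genes that act on actin were taken from a list of 90 regulators, of which 44 were tested. They split evenly, 22 above 0 and 22 below, with a median of -0.0015. By limma 0 passed the adjusted threshold, while 3 of those above 0 (6.82%, against 5.11% of all features) and 1 of those below (2.27%, against 3.25%) had an unadjusted p under 0.05, near the background. Wasf2, which switches on the Arp2/3 complex at the leading edge, was at 0.36 ± 0.10 (adjusted p 0.537), and at 0.23 without diabetic 3. Sptan1, the alpha spectrin under the plasma membrane, was at 0.39 ± 0.15, and at 0.24 without diabetic 3. Ppp1r12a, the targeting subunit of myosin phosphatase, was at 0.21 ± 0.08 and at -0.0047 without diabetic 3. Fscn1, which bundles filaments, was at -0.20 ± 0.08, with -0.36 to -0.11 on leaving out each animal. Among diabetic mice 3 of the 44 differed by the F test at an adjusted p under 0.05, where 1.47% of all features did: Rhoa, the GTPase that drives contraction, Msn, which joins filaments to the membrane, and Tagln2, a calponin relative. Rhoa lay at -0.82 and Msn at -0.72 in diabetic 3, the lowest animal for both, and Tagln2 at 0.49 there, the highest.

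Markers of cell types in which these genes are high were read beside them. The 5 tested of 11 smooth muscle and mesangial markers (Cnn1, Myl9, Mylk, Pdgfrb and Smtn) differed by 0.0060 to 0.07, and Cnn1 and Myl9 are members as well. Their mean level ran from -0.05 to 0.02 in diabetic mice and from -0.02 to 0.08 in menopausal/diabetic mice. Mylk, Pdgfrb and Smtn were detected on 2, 1 and 1 of the arrays. Of 7 podocyte markers 2 were tested, Podxl at 0.18 and Cd2ap at -0.09. The 3 tested of 8 proximal tubule markers (Gatm, Lrp2 and Miox), which mark the main cell of the cortex and were detected on 10 to 12 arrays, differed by 0.30 to 0.69. Their mean level was -1.23 in diabetic 3 and between 0.08 and 0.38 in the other 5 animals. Calb1, of the distal nephron, differed by 0.86 ± 0.38 (adjusted p 0.600 by limma). Its levels were 0.20, -0.14 and -1.36 in diabetic mice and 0.63, 0.36 and 0.31 in menopausal/diabetic mice, without overlap. Of 10 leukocyte markers Lcp1 and Lyz2 were tested and gave -0.02 and -0.18, of 7 endothelial ones Emcn gave 0.10, and of 13 skeletal muscle ones only the member Actn3 was tested. The part of cell makeup in the members' values was not tested. Without diabetic 3, the differences were 0.55 for Cfl1, 0.41 for Fermt2 and 0.23 for Arpc4, and 0.25 for Actb, 0.14 for Tpm3 and -0.03 for Vcl.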

How the data were processed

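Per the file headers, the authors' scanner files give for each spot the mean intensity and the median local background intensity in both channels. The authors also deposited a table of log2 ratios, with no statement of how they were normalized. The scanner software is likewise unnamed in the sources used. Per the labels' protocols, RNA was extracted with spin columns, amplified as antisense RNA and coupled as cDNA to Alexa Fluor dyes. The platform's probe table names the genes, with probe numbers counted from the bottom of the slide: clones of 1 gene (3477 pairs) then had a brightness correlation of 0.435, against 0.0435 in file order. Clone sequences and coordinates were not used here.

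With limma 3.58.1 in R 4.3.3, normexp (offset 50) removed the background, ratios were normalized by loess within arrays, the 2 spots of a clone were averaged, and the dimmest 25% of clones were left out (3904 of 15600), leaving 9955 features. The direction of ratios follows the dyes in the labels. Each feature's 12 ratios were fitted by least squares with a dye term to give 6 animal levels, which limma compared between the groups of 3 with Benjamini-Hochberg adjustment, two-sided, at a threshold of 0.05. The spread within a group was tested by limma's moderated F test on the 12 arrays. Animals share arrays, so their levels are not fully independent. The number of animals and arrays limits the precision. The functions were tested on simulated data.

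Members and gene lists were chosen with earlier results of these data known. Named by rule were the 12 members with the smallest unadjusted p, a fixed list of further members (among them Actg1, Arpc2, Tmsb10, Flna, Vcl, Myh9 and Wdr1) and the 4 regulators with the smallest p; other members and Rhoa, Msn and Tagln2 were named after their values were seen. Animals that share a number were not on an array together and did not deviate together (correlations across features of -0.04, -0.37 and -0.17), so numbers were not taken as pairs. Alternatives covered the background correction, normalization, filter, clones, print blocks, arrays and animals left out, and the deposited log2 ratios re-matched to their arrays.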

Additional observations from a re-analysis of the deposited data

How the results depend on the processing

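The count of members higher at an unadjusted p under 0.05 was 6. It was 3 with 1 loess curve per print block, with median centring and without the upper left print blocks, 2 with the re-matched deposited log2 ratios, and 3 to 7 on leaving out each animal (3 without menopausal/diabetic 3). The count of lower members was 1. It was 2 without background correction and with the 6 between-group arrays alone, 3 with each clone as a unit, 0 with median centring and without the array whose identifiers differ, and 0 to 2 on leaving out each animal (2 without diabetic 2; 0 without diabetic 3, menopausal/diabetic 1 or menopausal/diabetic 3). The count past the adjusted threshold was 0 to 1, the 1 being Actb without diabetic 2. With each clone a unit, 1 Actb clone differed among diabetic mice. With the replicate block, a term for the shared replicate number, 5 were higher and 0 lower, and the median was 0.04. Shares over all features in the same setting are given only for the main setting (5.11% higher, 3.25% lower) and the curve per print block (4.18% and 3.57%). Counts in the other settings have no such share beside them, so they are not read as a result about the members.

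Of 23 named genes, 12 had the same direction under all 20 alternatives, and Fermt3 under the 19 that gave it a value (none without background correction). Some alternatives left each named gene's difference as it was, so no direction could change in them. These were arrays as replicates (all 12 or the 6 between groups), the replicate block and each clone as a unit. Leaving out the dim filter, or the array whose identifiers differ, also did so. Gsn and Tmsb4x had no value without the upper left print blocks. Without background correction Myh9 was at -0.0027. With a curve per print block Gsn was at -0.0024, Tmsb4x at -0.044 and Wdr1 at 0.048, and with median centring Wdr1 was at 0.053. Without the upper left print blocks, Fermt2, then read by its second clone, was at -0.018. With the re-matched ratios Gsn was at -0.042 and Wdr1 at 0.0059, while Cfl1 was at 0.14, Arpc4 at 0.011, Fermt3 at 0.50 and Vcl at 0.61. Leaving out each animal gave ranges across 0 for Gsn (-0.014 to 0.23), Arpc2 (-0.045 to 0.12), Flna (-0.10 to 0.16), Vcl (-0.033 to 0.27), Myh9 (-0.070 to 0.087), Wdr1 (-0.084 to 0.12), Actg1 (-0.020 to 0.12) and Ppp1r12a (-0.0047 to 0.33). The cause was not tested. Leaving out the 2 arrays least like their prediction was chosen after seeing the data and reversed none of the 23. The 8 members detected on fewer than 9 arrays lie near the background, where the offset limits the size of a ratio.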
